A study of Mus musculus with 6 samples.

Results

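A group of 74 genes was read in Dicer wild-type (WT) mouse cells and was nearly silent in Dicer knockout (KO) cells. The genes were chosen by their exonic reads in the Dicer comparison, with a mean in WT cells of 50 or more normalised counts and a mean in KO cells below 5. A normalised count is the number of reads of a gene divided by the size factor of its library, which sets libraries of different depth on one scale. Of 23227 genes in the table, 10709 reached the WT minimum, and 78 of these (0.728%) lay below the KO maximum. Fstl3, Tnfrsf11b, Col10a1 and Hhip met both thresholds and were set aside by name, which left the 74. The rule would also have set aside microRNA, small RNA and histone genes, but none met both thresholds. These values fixed the membership, so the exonic and intronic differences between WT and KO cells are given below as descriptions, without a test.

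RNA-seq of ribosome-depleted, strand-specific libraries was made from mouse mesenchymal stem cells (MSCs) kept as immortalized, monoclonal lines. MSCs are cells of connective tissue that can form bone, cartilage and fat, and the labels also call these lines fibroblasts. The WT line was Dicer f/f, meaning that both Dicer1 alleles carried sites for Cre recombination but were not deleted, and the KO line was Dicer -/-. The 4 other groups were Dicer WT lines that had received, by transfection, either empty vector or one that over-expresses Pbx3, Sox9 or Tead4, all grown in Alpha-MEM. The labels give 1 sample for each of the 6 groups, and the deposited group means resolved into 2 libraries each, numbered 1 and 2 here by size factor within exonic and within intronic reads, so that the numbers pair nothing. Each genotype was 1 clonal line, so an effect of genotype and of clone cannot be told apart, and nothing says that the 2 libraries of a group came from separate cultures, so p-values measure only the spread between libraries.

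The libraries held 6130267 to 23501655 exonic reads. The summed level of 12 mesenchymal stromal markers was 4581 to 7761 reads per 1000000 exonic reads (rpm) in the 12 libraries. It was 5108 to 5819 rpm in WT and 4581 to 5162 rpm in KO libraries. Most of the sum was Vim and Itgb1, at 2610 and 1630 rpm in WT cells, which many other cells express too. Thy1 was at 0 in all libraries and Cspg4 at 0.302 rpm in WT cells, so the sum alone does not establish the cell type. Marker lists of other cells summed to less, with at most 3.02 rpm for haematopoietic, 1.57 rpm for endothelial and 0.638 rpm for epithelial cells. A list of 6 neural markers summed to 3.19 to 3.29 rpm in WT and 5.21 to 9.45 rpm in KO libraries, and its part in the results was not tested. Members with low WT means have levels of a similar size, so these sums do not show that such cells were absent. A list of 6 skeletal muscle markers summed to 50.7 to 178 rpm, nearly all of it Acta1, while Myog and Pax7 were at 0; it was 96.0 to 141 rpm in WT and 50.7 to 75.1 rpm in KO libraries, and its part in the results was not tested. In the over-expressing cells, Pbx3 rose by 7.04 ± 0.21 (log2, SE; adjusted p 0.00130) and Tead4 rose by 7.17 ± 0.18 (adjusted p 2.84e-04). Sox9 itself was at 179 and 186 normalised counts in Sox9 cells and at 115.6 and 47.5 in vector cells, a difference that did not pass the test (adjusted p 0.272). Reads summed over all of Dicer1 do not check the deleted part of that gene.

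Dicer cuts hairpin precursors into mature microRNAs, which pair with messenger RNAs and mostly lower their amount and translation. A gene whose reads are lost without Dicer thus moves the opposite way to a target released from a microRNA. Whether any member is a microRNA target was not tested. Reads in exons come mainly from spliced messenger RNA, and reads in introns come mainly from RNA not yet spliced, so the pair of measures separates mature from newly made RNA. In the skeleton, osteoblasts secrete bone sialoprotein (Ibsp) and osteocalcin (Bglap), and chondrocytes lay down type II and type XI collagen under the control of the transcription factor Sox9.

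The 250 bases before the start site of 5 members are shown because these genes carry the results on bone proteins and on Sox9 and Tead4 cells. They are RefSeq sequence of build GRCm38.p6, 5′ to 3′ on the strand of the gene, for Ibsp at chr5:104299037-104299286 (+), Bglap at chr3:88384467-88384716 (-), Col11a1 at chr3:114030290-114030539 (+), Itm2a at chrX:107403361-107403610 (-) and Unc5c at chr3:141465314-141465563 (+). Capitals mark TATAAA, the string ACAATG and the string ACAAAG where present, on either strand. TATAAA is a core promoter element, and the other 2 strings are of the kind that factors of the Sox family bind. The genes and motifs were picked after the values were seen.
Ibsp: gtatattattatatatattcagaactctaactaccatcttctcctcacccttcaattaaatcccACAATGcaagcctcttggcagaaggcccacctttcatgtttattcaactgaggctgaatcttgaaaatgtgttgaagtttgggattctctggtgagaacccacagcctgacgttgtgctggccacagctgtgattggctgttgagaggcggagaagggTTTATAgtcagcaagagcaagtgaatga
Bglap: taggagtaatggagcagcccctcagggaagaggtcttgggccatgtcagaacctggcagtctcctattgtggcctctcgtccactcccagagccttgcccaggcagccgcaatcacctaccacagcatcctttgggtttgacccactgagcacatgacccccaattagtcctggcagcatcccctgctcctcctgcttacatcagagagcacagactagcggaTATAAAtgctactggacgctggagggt
Col11a1: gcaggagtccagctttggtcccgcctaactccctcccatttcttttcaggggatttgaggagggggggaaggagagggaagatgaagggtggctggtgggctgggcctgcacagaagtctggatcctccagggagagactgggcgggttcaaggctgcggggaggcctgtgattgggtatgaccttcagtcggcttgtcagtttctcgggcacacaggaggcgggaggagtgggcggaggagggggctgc
Itm2a: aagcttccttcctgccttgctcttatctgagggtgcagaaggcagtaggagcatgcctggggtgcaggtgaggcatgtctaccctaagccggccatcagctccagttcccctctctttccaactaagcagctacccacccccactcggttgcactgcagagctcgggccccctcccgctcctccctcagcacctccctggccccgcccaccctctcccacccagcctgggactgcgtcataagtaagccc
Unc5c: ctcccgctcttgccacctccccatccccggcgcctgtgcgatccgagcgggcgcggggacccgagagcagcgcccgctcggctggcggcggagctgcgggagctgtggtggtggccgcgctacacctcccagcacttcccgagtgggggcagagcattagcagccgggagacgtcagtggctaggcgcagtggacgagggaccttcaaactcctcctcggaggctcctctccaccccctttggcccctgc

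Ibsp and Bglap each held TATAAA close to the start, on the reverse strand in Ibsp, and Ibsp also held ACAATG. The other 3 windows held none of the strings, which says only that these letters are not in those windows. They differed in the number of CG dinucleotides, with 2 in Ibsp, 4 in Bglap, 7 in Col11a1, 6 in Itm2a and 23 in Unc5c. Across 27025 RefSeq windows of 300 bases, 13.0% held TATAAA, 10.99% held ACAATG and 16.5% held ACAAAG. RefSeq windows matched 53 of the 74 members, too few (71.6%) for a statement on the promoters of the whole group.

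Across the 74 genes, WT means ran from 50.3 to 1899 normalised counts with a median of 99.9, and KO means had a median of 1.52 and a maximum of 4.93. No member had more than 10 KO reads over both libraries, and 15 had none. In all 74, every WT library lay above every KO library, as the rule nearly forces, whereas this held for 31.6% of all genes that reached the WT minimum. Genes just outside the thresholds had WT means of 49.2 (Gda), 47.4 (Larp6) and 46.7 (Agtr1a) or KO means of 5.27 (BC017612, Hey2 and Chsy3). Just inside lay Zfp167 (50.3), Fam132b (50.4) and Fli1 (50.4) in WT cells, and Zfp521 (4.93), Cd80 (4.93) and Nmnat2 (4.87) in KO cells. In these bulk samples, fewer cells that express a gene and less RNA per cell cannot be told apart.

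**Figure D1:**
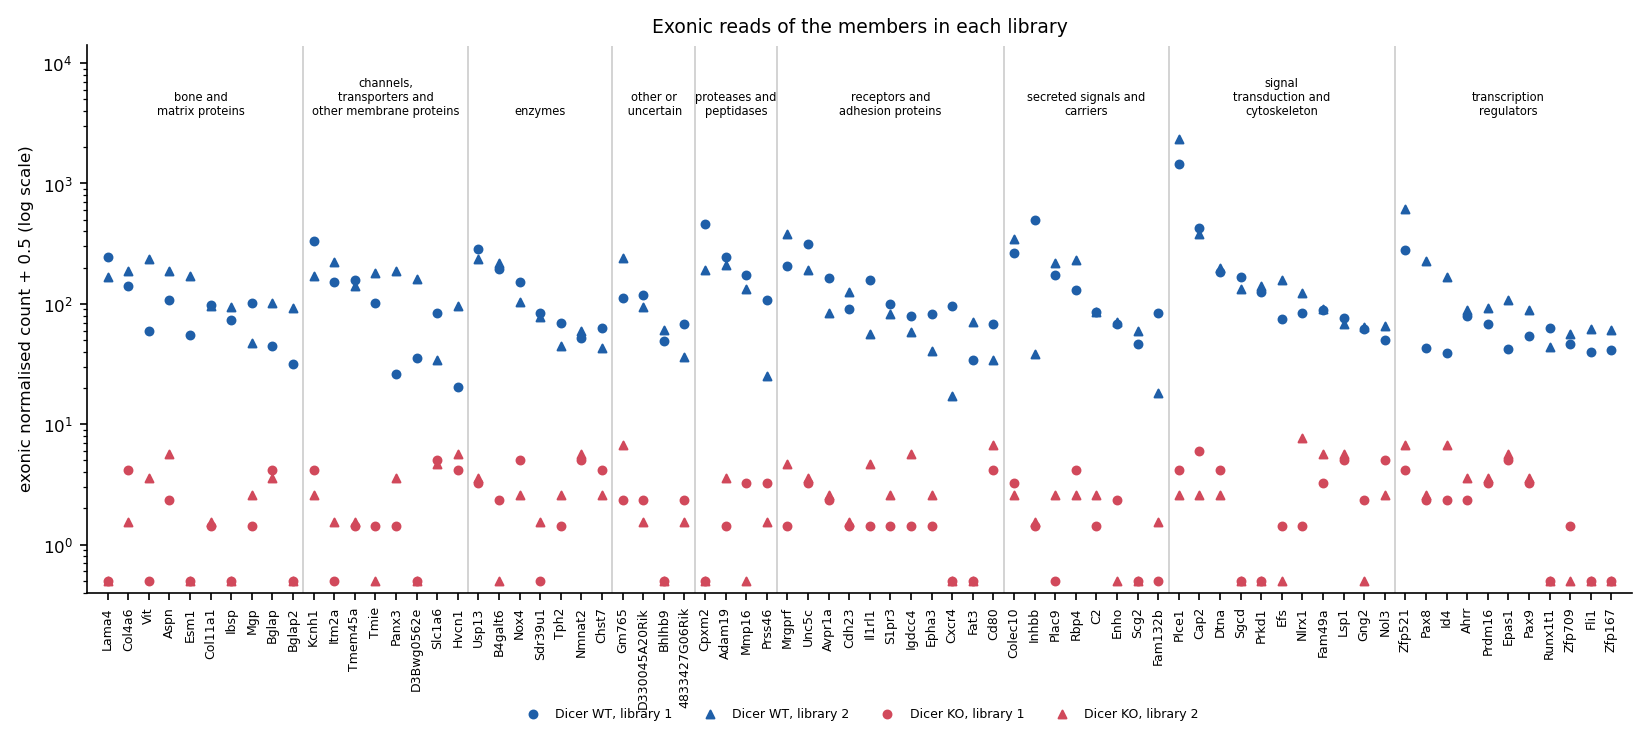
Exonic normalised counts of the 74 genes in each WT and each KO library, grouped by function, on a log10 axis after adding 0.5. KO points sit at or below 7.23 normalised counts, and WT points start at 16.7.

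Bone and matrix proteins made up 10 members, with WT means from 61.2 to 204. Lama4, a laminin chain of basement membranes, was read at 242 and 166 normalised counts in the WT libraries but had no KO read, which is at least 142-fold lower against a floor of 3 reads over the group. Col4a6, a basement membrane collagen chain, was at 139.5 and 186 in WT and at 3.67 and 1.03 in KO cells. Col11a1, a fibrillar collagen of cartilage, was at 97.1 and 95.8 in WT and at 0.917 and 1.03 in KO cells. These 3 were low in both KO libraries, and their WT libraries lay close to each other.

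Among the other members of this class, Ibsp was at 72.6 and 93.6 in WT and had no KO read, at least 56.4-fold lower. Bglap was at 44.3 and 100.3 in WT and at 3.67 and 3.10 in KO cells. Its neighbour and near-identical copy Bglap2 was at 31.1 and 91.3 against no KO read, and reads of the 2 osteocalcin genes may have been split between them by the counting. Mgp, the matrix Gla protein that restrains calcification, was at 102 and 46.8 in WT and at 0.917 and 2.07 in KO cells. Aspn (asporin, a small leucine-rich proteoglycan) was at 107 and 188 against 1.83 and 5.16, and Vit (vitrin) at 59.4 and 237 against 0 and 3.10. Esm1, a proteoglycan best known from endothelium, was at 54.7 and 170.4 in WT and had no KO read. Of these 7 genes, 6 were higher in WT library 2, all but Mgp.

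Proteases and peptidases gave 4 members, with WT means from 65.5 to 327. Cpxm2, a carboxypeptidase-like secreted protein, was at 462 and 192 in WT and had no KO read, at least 232-fold lower and the largest such bound in the group. Adam19, a membrane metalloprotease, was at 246 and 208 against 0.917 and 3.10. Mmp16, a membrane-type matrix metalloprotease, was at 172 and 133 against 2.75 and 0. Prss46, a serine protease, was less even in WT cells, at 107 and 24.5.

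Secreted signals and carriers gave 8 members, with WT means from 50.4 to 303. Colec10, a collectin, was at 265 and 342 in WT and at 2.75 and 2.07 in KO cells. Inhbb, the beta B subunit of activin and inhibin, was at 501 and 37.9 in WT and at 0.917 and 1.03 in KO cells, so its WT mean of 269 rests mainly on 1 library. Rbp4, which carries retinol, was at 131 and 231 against 3.67 and 2.07, and Plac9, whose near-identical copies the counting may split, at 174 and 219 against 0 and 2.07. The others were the complement component C2 (85.8 in each WT library), the energy balance peptide precursor Enho, the iron hormone gene Fam132b (erythroferrone) and Scg2 (secretogranin II), which had no KO read.

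Receptors and adhesion proteins gave 11 members, with WT means from 50.6 to 293. Mrgprf, an orphan G protein-coupled receptor, was at 206 and 381 in WT and at 0.917 and 4.13 in KO cells. Unc5c, a netrin receptor of axon guidance, was at 313 and 190.5 against 2.75 and 3.10. Epha3, an ephrin receptor, was at 82.0 and 40.1 against 0.917 and 2.07, and Il1rl1, the receptor for interleukin-33, at 157 and 55.7 against 0.917 and 4.13. The chemokine receptor Cxcr4 was at 95.2 and 16.7 and had no KO read, and the large cadherin Fat3 was at 33.9 and 70.2 and had none either. Avpr1a (vasopressin receptor), S1pr3 (sphingosine 1-phosphate receptor), Cdh23, Igdcc4 and Cd80, a ligand that costimulates T cells, completed the class, with KO means of at most 4.93.

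Channels, transporters and other membrane proteins gave 8 members, with WT means from 57.2 to 251. Kcnh1, a voltage-gated potassium channel, was at 332 and 169 in WT and at 3.67 and 2.07 in KO cells. Itm2a, a type II membrane protein found in cartilage, was at 152 and 223, with a single read in KO cells, or 0.263% of the WT reads (95% exact interval 0.00665% to 1.48%, counting error only). Tmem45a was at 157 and 141 against 0.917 and 1.03, and Tmie, which is needed for hearing, at 102 and 180.5 against 0.917 and 0. Panx3, a pannexin channel of bone and cartilage cells, was at 25.5 and 186 against 0.917 and 3.10. Hvcn1 (a proton channel), Slc1a6 (a glutamate transporter) and D3Bwg0562e (a lipid phosphatase-related protein) were the lowest of this class.

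Transcription regulators gave 11 members, with WT means from 50.3 to 447. Zfp521, a zinc finger protein of mesenchymal and bone cells, was at 280.0 and 615 in WT and at 3.67 and 6.20 in KO cells. Pax8 was at 42.4 and 225 against 1.83 and 2.07, and Pax9 at 53.7 and 89.1 against 2.75 and 3.10. Prdm16, known from brown fat, was at 66.9 and 91.3 against 2.75 and 3.10. Runx1t1 (62.2 and 43.4), Fli1 (39.6 and 61.3) and Zfp167 (40.5 and 60.2) had no KO read. Id4, an inhibitor of helix-loop-helix factors, Epas1, a hypoxia-inducible factor, Ahrr, the repressor of the aryl hydrocarbon receptor, and Zfp709 were the others.

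Signal transduction and cytoskeleton genes gave 11 members, with WT means from 57.3 to 1899. Plce1, phospholipase C epsilon, was the most read member, at 1450.0 and 2348 in WT and 3.67 and 2.07 in KO cells, where 6 reads or 0.157% of the WT level (95% interval 0.0574% to 0.341%) were left. Cap2, an actin-binding protein of muscle, was at 423 and 379.9 against 5.501 and 2.07. Dtna (dystrobrevin alpha) and Sgcd (delta-sarcoglycan) both belong to the complex that links dystrophin to the membrane. Dtna was at 182 and 198 against 3.67 and 2.07, and Sgcd at 166 and 131 with no KO read, at least 103-fold lower. Prkd1 (protein kinase D1) was at 125 and 139 with no KO read, at least 90.4-fold lower. The adaptor Efs, the G protein subunit Gng2, Nlrx1, Nol3, Lsp1 and Fam49a had WT means between 57.3 and 116.

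Enzymes gave 7 members, with WT means from 52.3 to 261. Usp13, a deubiquitinase, was at 287 and 236 in WT and 2.75 and 3.10 in KO cells. B4galt6, which makes lactosylceramide, was at 195 and 219 against 1.83 and 0. Nox4, an oxidase that makes hydrogen peroxide, Sdr39u1, Chst7 (a sulfotransferase), Tph2 (tryptophan hydroxylase) and Nmnat2 (which makes NAD) had KO means of at most 4.87. The remaining 4 genes were put in no class: Gm765, at 112 and 241 against 1.83 and 6.20, D330045A20Rik, 4833427G06Rik and Bhlhb9.

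WT libraries differed from each other by a median factor of 1.48 over the members, by at least 2-fold in 24 genes and by at least 4-fold in 9. The 9 were Inhbb, Panx3, Pax8, Cxcr4, Hvcn1, Fam132b, D3Bwg0562e, Prss46 and Id4. Of the 74, 38 met both thresholds in every library. The difference between the WT libraries was shared by other groups: over 9531 exonic genes, it correlated with that between the 2 libraries of the KO, Pbx3 and Tead4 groups at r of 0.654, 0.622 and 0.451, and of the vector and Sox9 groups at r of -0.673 and -0.474, where the sign follows the arbitrary numbering. In the 5 groups other than KO, 17 members (23.0%) were higher in the corresponding library every time, among them Plce1, Itm2a, Panx3, Ibsp and Bglap, against 16.6% of other genes, and 1 member, Il1rl1, was lower every time, against 19.4%. No label says what separates the libraries, and its part in the results was not tested.

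Intronic reads were lower as well. Of the 74 genes, 71 had intronic reads in WT or KO cells (all but Mmp16, Bglap2 and Nmnat2), and all 71 had a lower intronic mean in KO cells. With an intronic mean of at least 10 over both groups, 54 members were left, and in all 54 both KO libraries lay below both WT libraries, against 28.7% of the 12579 genes with such a mean. The median intronic difference of these 54 was -4.10 on the log2 scale (range -6.79 to -1.25), and that of all 12579 genes was -0.0014. Intronic reads belong to the same contrast as the rule and support nothing by themselves.

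The 6 members with the most KO intronic reads show the range. Intronic normalised counts of Sgcd were 1986 and 1449 in WT cells and 46.4 and 36.0 in KO cells, or 2.38% of the WT level, while its exons had no KO read. Prkd1 likewise went from 673 and 624 to 41.4 and 39.0 (6.19%) with no exonic KO read. Gm765 went from 1079 and 2224 to 56.2 and 24.0 (2.47%), Unc5c from 847 and 469 to 30.6 and 26.0 (4.25%), and Zfp521 from 1003 and 2040.0 to 22.7 and 18.0 (1.36%). Cd80 kept the most, with 97.4 and 65.7 intronic counts in WT and 39.4 and 28.0 in KO cells, or 41.1% (95% interval 30.5% to 54.8%), next to 9.32% in its exons (4.34% to 17.9%). Fat3 kept 19.4% of its intronic level and no exonic read. These values lay far apart although the exons of all 6 and of Fat3 were almost empty.

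Over the 54 members, a median of 4.72% of the intronic level and 1.25% of the exonic level was left in KO cells, and the intronic share was the larger in 48. The 95% interval of the intronic share lay wholly above the exonic one in 12 members and wholly below it in none. The rule kept the exonic share low and set no limit on the intronic one, so these counts are largely fixed by the choice of members. For 44 of the 54, under 10% of the intronic level was left. Plce1 kept 1.29% in introns (WT 515 and 726, KO 6.90 and 9.004) and 0.157% in exons. Fli1 and Runx1t1 kept 0.450% and 1.39% in introns, with 1 and 4 reads.

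**Figure D2:**
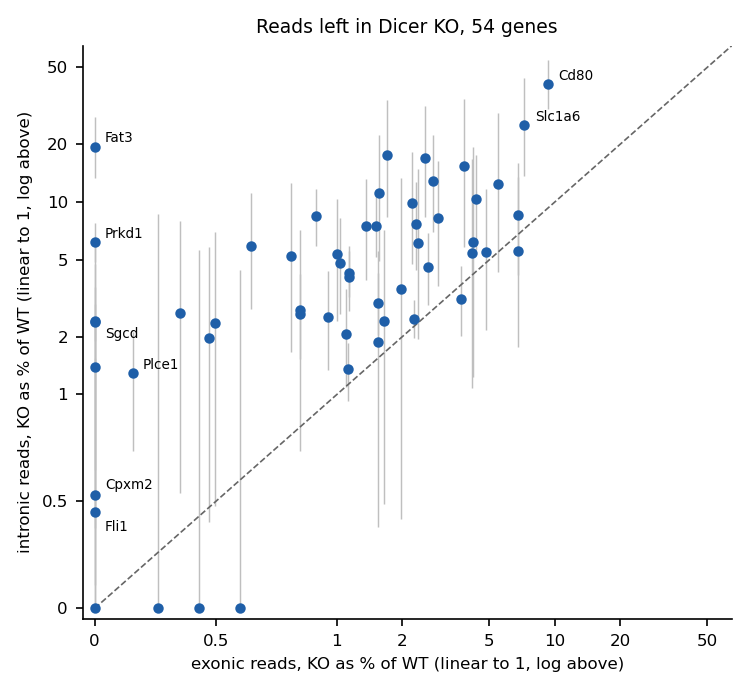
Share of the WT level left in KO cells, as percent, for exonic reads (x axis) and intronic reads (y axis) of the 54 members with an intronic mean of at least 10. Both axes are linear at the lowest shares and log above. Error bars are 95% counting intervals of the intronic share, and most points (48 of 54) lie above the dashed line of equal shares.

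The members are scattered over the genome. RefSeq positions were found for 73 of them on 20 chromosomes, with at most 9 on one and 5 on X. Bglap and Bglap2 lie side by side, Tmie and Prss46 have 1 gene between them, Plce1 and Rbp4 have 5, and Cap2 and Id4 have 8. Of the genes next to a member, 61 reached the WT minimum, and 1 of these, Tnfrsf11b beside Colec10, met the rule's thresholds itself. The 60 others had a median exonic difference of -0.14 (log2, KO against WT), and 12 of them (20%) were at -1 or lower. Of the 10635 genes with the same WT minimum that are no members, 7.07% were at -1 or lower. The lowest of the 60 was Omd (osteomodulin) beside Aspn. Members spanned a median of 49.4 kb of the genome and other genes with the same WT minimum 24.9 kb.

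The vector, Pbx3, Sox9 and Tead4 cells are WT for Dicer. Because members had to be high in the WT line and near 0 in the KO line, levels relative to either line are described without a test. In vector cells the median member stood at 61.9% of its WT rpm, against 96.6% for other genes with the same WT minimum. The values ran from 5.996% (Scg2) to 613% (Epha3), with 19 members at or above the WT level. Both vector libraries exceeded both KO libraries in 72 of 74 members, next to 32.5% of all genes with the same WT minimum, a count that the KO maximum of the rule nearly fixes.

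The same medians were 49.8% in Pbx3, 56.1% in Sox9, 24.5% in Tead4 and 1.15% in KO cells. Under 10% of the WT level lay 3 members in vector cells, 4 in Pbx3 cells, 9 in Sox9 cells and 26 in Tead4 cells, while the shares of other genes at that level were 0.0940%, 0.320%, 0.244% and 0.856%. Among the 26 were Cap2, Cpxm2, Inhbb, Itm2a, Rbp4, Panx3, Bglap, Bglap2, Efs, Prdm16 and Epas1. Inhbb was under 10% in all 4 of these groups, at 0.635 and 1.52 rpm in the vector libraries next to 22.9 and 1.84 rpm in the WT libraries. No read was left of Vit and Scg2 in Sox9 cells, or of Avpr1a, Efs, Bhlhb9, Scg2 and Fat3 in Tead4 cells.

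**Figure D3:**
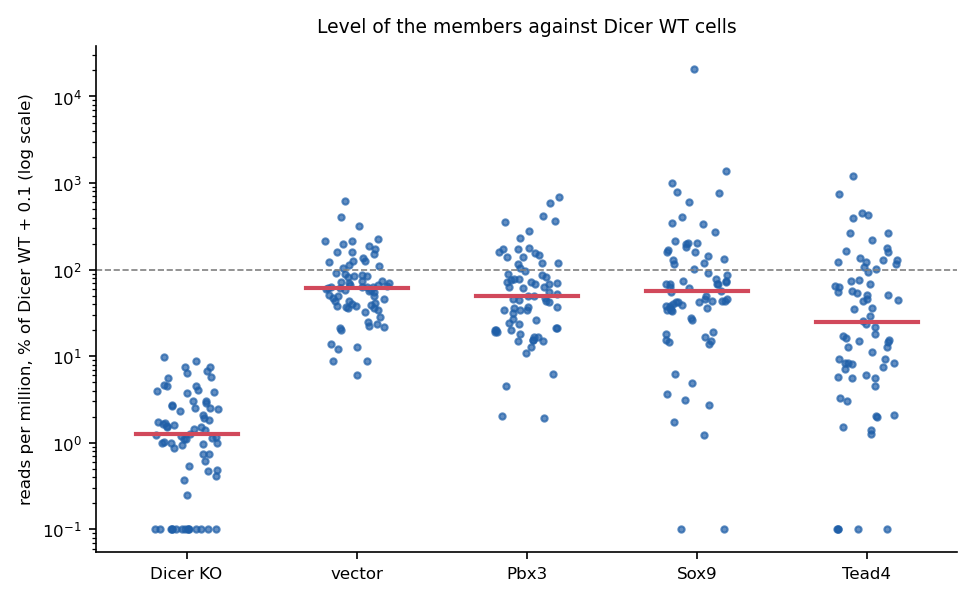
Level of each member in rpm as a percent of its mean in Dicer WT cells, on a log axis after adding 0.1, in KO, vector, Pbx3, Sox9 and Tead4 cells. Each point is 1 gene and red lines are medians, at 1.15% for KO and at 61.9%, 49.8%, 56.1% and 24.5% for the vector, Pbx3, Sox9 and Tead4 cells.

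The 3 factor comparisons share the same vector libraries, and each was tested with limma, a linear model on log2 of normalised count + 1, over all genes with a mean of at least 50 over both groups and with Benjamini-Hochberg adjustment. The rule used none of these libraries. Vector values differ slightly between the comparisons because each deposited table was scaled on its own. For genes below that mean, a fit with a minimum mean of 10 is also given. Since the mean covers both groups, a member that falls can drop below the minimum and one that rises can reach it. A term for the difference that libraries share across groups was added after the data were seen. With it, the exonic calls were 9, 13 and 12 members for Pbx3, Sox9 and Tead4. The share of all genes called with that term was not counted, so this rise is no result about the members.

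Pbx3 cells gave no called member. None of the 24 members tested in exons passed limma (4 had an unadjusted p under 0.05), next to 0.0102% of all genes, and none of 18 passed in introns, where no gene did (0.0%). The authors' deposited table also calls no member, and 0.102% of all genes. Among the tested members, Cap2 had the highest ratio, at 41.1 and 52.0 normalised counts in vector and 111 and 147 in Pbx3 cells (1.45 ± 0.31). Fam132b and Col11a1 followed, with overlapping libraries. Ibsp had the lowest, at 89.1 and 75.6 against 11.3 and 41.1 (-1.87 ± 0.64), then Panx3 at 107 and 49.6 against 15.1 and 45.2. Plce1 was at 716 and 583 against 316 and 339 (-0.98 ± 0.18), also without overlap. Of 61 members with a mean of at least 10, Pbx3 libraries lay wholly above vector in 10 and wholly below in 16, where 12.5% and 12.8% of all genes did.

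In Sox9 cells 4 matrix, guidance and membrane genes were called higher and no tested member was called lower. Of 19 members tested in exons, limma called 4 higher and 0 lower (11 had an unadjusted p under 0.05), next to 0.454% higher and 0.0928% lower over all genes. Col11a1 was at 193 and 106 normalised counts in vector and at 9727 and 5886 in Sox9 cells, a 52.3-fold ratio of means (log2 5.72 ± 0.33, adjusted p 9.74e-04). Unc5c was at 134 and 158 against 915 and 591 (2.33 ± 0.24, adjusted p 0.00927). Lama4 was at 153 and 206 against 1365 and 798 (2.55 ± 0.28, adjusted p 0.0105), and Itm2a at 66.9 and 63.3 against 781 and 337 (2.96 ± 0.37, adjusted p 0.0183). All 4 had groups far apart, and library 1 was the higher Sox9 library each time. Lama4 missed the threshold in 1 fit over the 8 vector and factor libraries (adjusted p 0.0508), and in the authors' deposited table the adjusted p of Itm2a is 0.314. The median difference over the tested members was 0.81 (log2), next to -0.016 over all tested genes, and 0.56 to 1.18 when 1 library was left out.

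With a minimum mean of 10, limma called 6 of 62 members higher and 2 lower, next to 0.765% and 0.18% of all genes. The added ones were Col4a6, at 55.2 and 27.7 against 264 and 171 (2.41 ± 0.37, adjusted p 0.0328, and 0.0536 at the minimum of 50), and Zfp521, at 137 and 69.2 against 363 and 338 (1.83 ± 0.31, adjusted p 0.0469, and 0.0722). Cap2 fell, from 34.2 and 43.5 to 1.07 and 3.91, or 6.16% of the vector reads (95% interval 1.64% to 16.3%; adjusted p 0.0495). Vit, at 47.3 and 26.7 in vector cells, had no read in Sox9 cells, at least 21.9-fold lower (adjusted p 0.0264). The authors' deposited table calls 5 members higher (Zfp521, Unc5c, Lama4, Col4a6 and Col11a1) and Cap2 and Vit lower, next to 0.895% and 0.246% of all genes.

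Intronic reads in Sox9 cells gave 8 higher members of 17 tested and none lower, next to 1.45% and 0.538% of all genes. Col11a1 rose from 161 and 107 to 7463 and 5455 intronic counts (log2 5.60 ± 0.23, adjusted p 3.92e-05), close to its exonic 5.72. Lama4 rose by 2.85 ± 0.20 (adjusted p 2.83e-04), Col4a6 by 2.57 ± 0.20 (adjusted p 5.43e-04), Unc5c by 2.53 ± 0.22 (adjusted p 9.55e-04) and Zfp521 by 2.07 ± 0.24 (adjusted p 0.00316). Sgcd rose by 1.17 ± 0.18 (adjusted p 0.0152), Epha3 by 1.02 ± 0.18 (adjusted p 0.0325) and Runx1t1 by 1.10 ± 0.21 (adjusted p 0.0388). Without Sox9 library 1, the call of Sgcd was lost (adjusted p 0.0814). Epha3 lost its call without Sox9 library 2 and in 1 fit over the 8 vector and factor libraries, and Runx1t1 without either Sox9 library or vector library 2 and when scaled to library totals, with adjusted p up to 0.159 and 0.172 over the alternatives.

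Ibsp, Panx3 and Aspn did not pass in Sox9 cells. Ibsp was at 74.2 and 63.3 in vector and at 95.1 and 14.3 in Sox9 cells, with overlapping libraries (adjusted p 0.661). Panx3 was at 89.4 and 41.5 against 386 and 119.8 (1.80 ± 0.56, adjusted p 0.280), and Aspn at 108 and 33.6 against 343 and 122 (1.74 ± 0.62, adjusted p 0.319), both without overlap. Il1rl1 had the lowest ratio among the tested members, at 126 and 134 against 68.4 and 103 (-0.62 ± 0.27, adjusted p 0.393), and Usp13 was at 70.5 and 51.4 against 50.2 and 33.8. Of 62 members with a mean of at least 10, Sox9 libraries lay wholly above vector in 17 and wholly below in 11, next to 22.6% and 22.9% of all genes. Over all 74 members, 38 had a higher mean and 36 a lower one, and the shares of all genes were not counted.

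**Figure D4:**
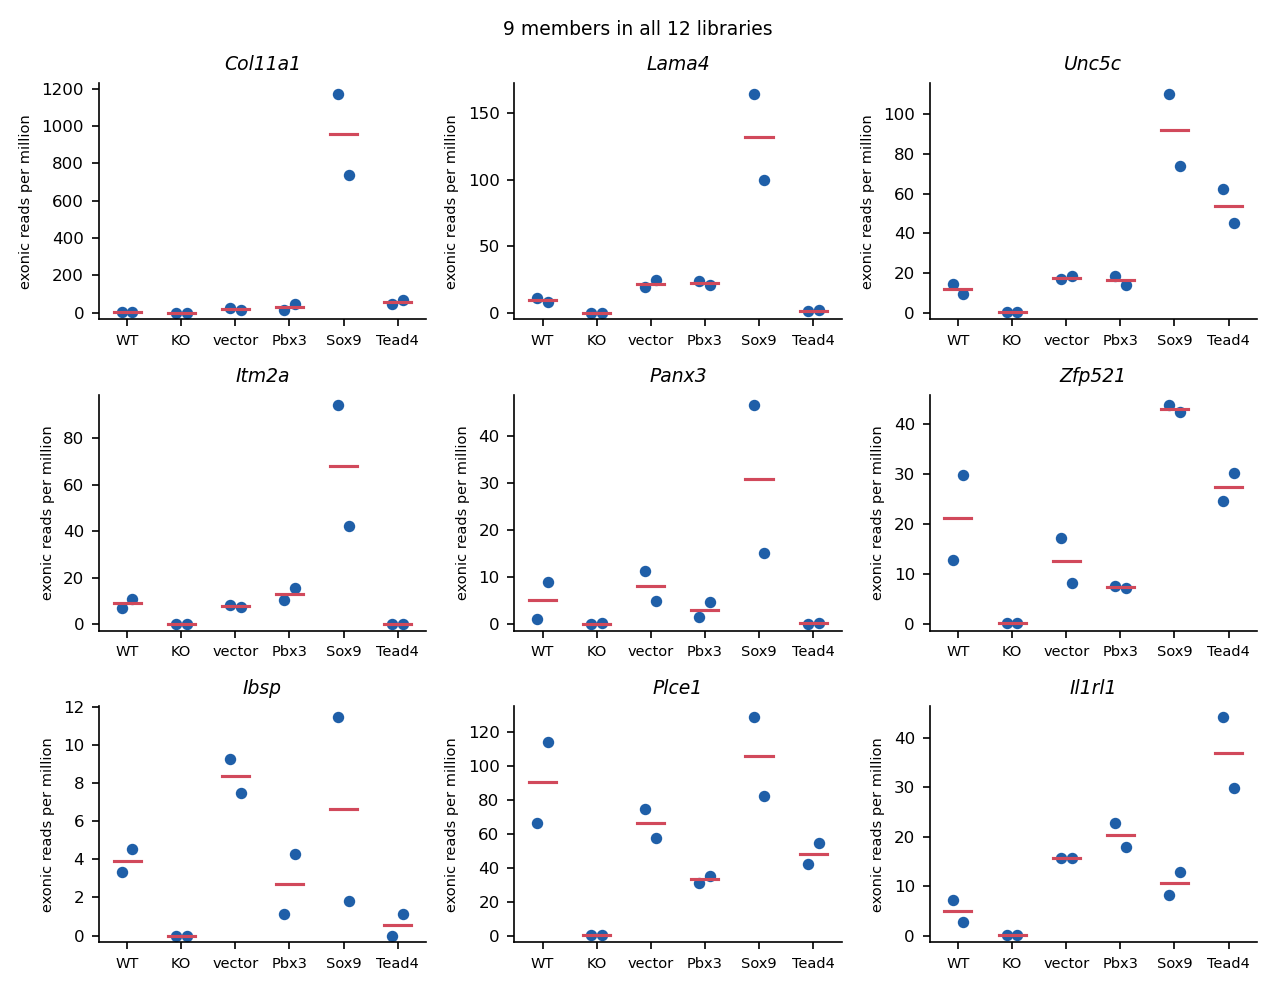
Exonic rpm of 9 members in each of the 12 libraries on linear axes, with red bars for the group means: Col11a1, Lama4, Unc5c, Itm2a, Panx3, Zfp521, Ibsp, Plce1 and Il1rl1. Col11a1 is highest in both Sox9 libraries, and Itm2a and Panx3 are near the KO level in Tead4 cells.

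In Tead4 cells no tested member passed in exons. Of all 74 members, 54 had a lower mean than in vector cells and 20 a higher one. The share of all genes with a lower mean was not counted, so this split is no result about the members. The median difference was 0.66 (log2) over the 23 members with a mean of at least 50, next to 0.0080 over all such genes. It was -0.45 over the 53 with a mean of at least 10, next to 0.0053 over all such genes. Because the minimum applies to both groups together, members that fall can drop out, so the sign of this median depends on the filter. Itm2a, for example, was tested against vector only at the minimum of 10. Of 23 members tested, limma called 0 higher and 0 lower (12 had an unadjusted p under 0.05), next to 0.0817% and 0.0612% of all genes. The authors' deposited table calls 4 members higher and 11 lower, next to 0.81% and 0.891% of all genes. Without vector library 1 the median difference over the tested members was 0.61 (log2), and without vector library 2 it was -0.063. Of 53 members with a mean of at least 10, Tead4 libraries lay wholly below vector in 25 and wholly above in 16, next to 24.1% and 24.7% of all genes.

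Members of several classes were low in Tead4 cells, and Panx3, Ibsp, Bglap2 and Efs are given here as examples chosen after their values were seen. Itm2a was at 79.4 and 74.4 in vector and at 0.898 and 1.0995 in Tead4 cells, 2 reads or 1.28% of the vector reads (95% interval 0.154% to 4.70%). It passed limma with a minimum mean of 10 (-5.29 ± 0.49, adjusted p 0.0332), as the only member, next to 0.126% of all genes higher and 0.0808% lower. Panx3 was at 106 and 48.8 against 0.898 and 2.20, 3 reads or 1.81% (0.370% to 5.39%; adjusted p 0.0660). Lama4 was at 182 and 242 against 8.08 and 19.8 (-3.94 ± 0.47, adjusted p 0.0669), Ibsp at 88.0 and 74.4 against 0 and 10.995, and Bglap2 at 21.6 and 11.6 against 0 and 1.0995. The groups did not overlap in any of these 5 genes. Efs, at 19.9 and 15.1 in vector cells, had no Tead4 read, at least 12.03-fold lower.

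The authors' deposited table calls Lama4, Itm2a, Rbp4, Panx3, D330045A20Rik, Efs, C2, Ibsp, Prdm16, Bglap2 and Fli1 lower in Tead4 cells. It calls Unc5c, Plac9, Gng2 and Ahrr higher. Unc5c was at 159 and 186 in vector and 608 and 432 in Tead4 cells (1.57 ± 0.21, limma adjusted p 0.0791), and Gng2 at 31.9 and 27.9 against 124 and 101 (1.87 ± 0.29, limma adjusted p 0.101). Col11a1 was at 229 and 124 against 434 and 618 (1.61 ± 0.33, limma adjusted p 0.139). Aspn (129 and 39.5 against 18.0 and 56.1) overlapped, and Mmp16 was at 155 and 143 against 64.6 and 95.7 (-0.91 ± 0.26, limma adjusted p 0.1997).

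In introns of Tead4 cells, 2 of 17 members were called higher and 1 lower, next to 0.757% and 0.851% of all genes. Col11a1 rose from 179 and 117 to 414 and 497 (1.64 ± 0.22, adjusted p 0.0168), and Il1rl1 from 64.4 and 74.0 to 176 and 139 (1.17 ± 0.21, adjusted p 0.0436). Col11a1 lost its call in 1 fit over the 8 vector and factor libraries (adjusted p 0.127). Lama4 fell from 108 and 96.8 to 7.69 and 15.9 (-3.09 ± 0.41, adjusted p 0.0162). Il1rl1 lost its call without Tead4 library 1 and when scaled to library totals. More members were called when either vector library was left out. The share of all genes called was not counted there, so this rise is no result about the members. With a minimum mean of 10, 5 of 44 members were higher and 6 lower, next to 0.887% and 0.994% of all genes. Plac9, Col4a6 and Ahrr joined the higher ones, and Prdm16, Fli1, Tmie, Panx3 and D330045A20Rik the lower ones. Prdm16, for example, went from 80.5 and 74.0 to 11.97 and 17.0 intronic counts (-2.36 ± 0.30, adjusted p 0.0107), and Panx3 from 27.7 and 12.5 to no read, at least 14.4-fold lower (adjusted p 0.0265).

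**Figure D5:**
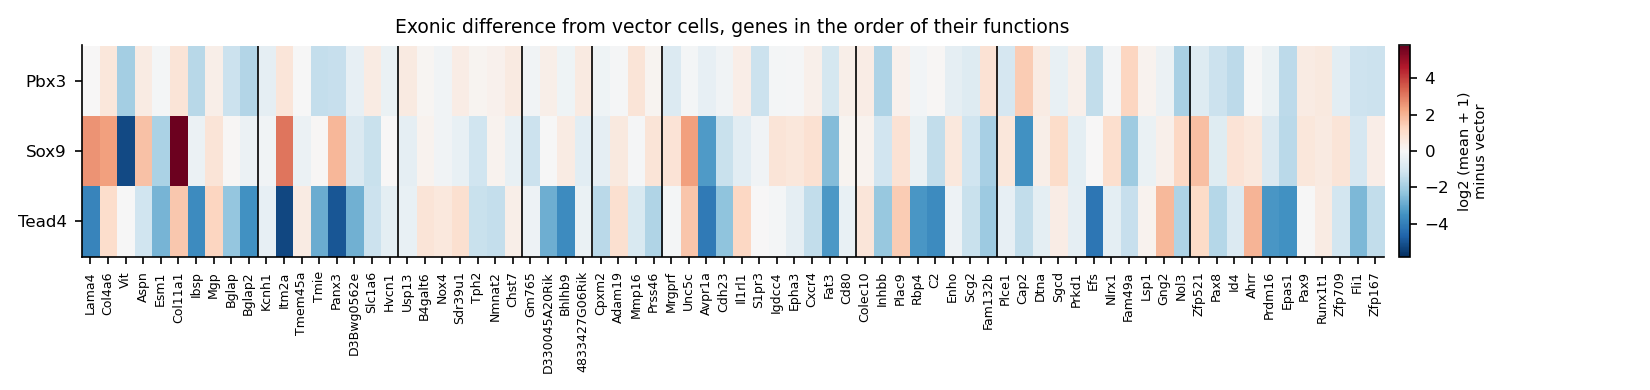
Difference in log2 of mean exonic normalised count + 1 from vector, for Pbx3, Sox9 and Tead4 cells (rows) and the 74 members (columns, by class). Red is higher and blue lower than vector, with Col11a1 the strongest red in Sox9 cells and Itm2a and Panx3 among the strongest blues in Tead4 cells.

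The factors were also set against each other in 1 limma fit over the 8 vector and factor libraries. Of 9778 genes, 0.941% differed between Sox9 and Pbx3, 0.787% between Tead4 and Pbx3 and 3.56% between Sox9 and Tead4. Only members with a mean of at least 50 over the 8 libraries were tested, and among these 6, 5 and 6 genes did. Lama4 separated all 3 factors, with 6.48 (log2) more in Sox9 than in Tead4 cells (adjusted p 7.90e-04), 2.50 more in Sox9 than in Pbx3 cells (adjusted p 0.0426) and 3.99 less in Tead4 than in Pbx3 cells (-3.99, adjusted p 0.0110). Itm2a was 8.20 higher in Sox9 than in Tead4 cells (adjusted p 3.32e-04) and Panx3 6.65 higher (adjusted p 0.00569). Il1rl1 went the other way, at -1.80 in Sox9 against Tead4 cells (adjusted p 0.0181).

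Other genes of matrix, bone, signalling, guidance, muscle, homeobox and adhesion lists were tested with the same model. The smooth muscle, the homeobox and T-box, and the cadherin, protocadherin and integrin lists hold no member. In KO against WT cells, limma called 9.28% of all genes higher and 7.36% lower. The 4 genes set aside by name are left out of the counts for KO against WT cells, because they met the rule's thresholds. Of 14 further bone and cartilage genes, 6 were lower and 0 higher (median -1.21 against 0.012 for all genes), and Runx2, the osteoblast regulator, was lower (log2 -0.85 ± 0.19, adjusted p 0.0413), as were Sp7 (-5.38) and Col2a1 (-4.12). Of 37 further extracellular matrix genes, 10 were lower and 0 higher, and of 15 smooth muscle contractile genes, 9 were lower and 0 higher. Of 29 further Wnt, hedgehog, BMP and TGF-beta genes, 9 were lower and 4 higher. Eph, ephrin, semaphorin, netrin and slit genes gave 7 lower and 3 higher of 27, and homeobox and T-box genes 4 and 2 of 30. Cadherins, protocadherins and integrins gave 1 lower and 6 higher of 15. These lists were chosen with earlier results of these data known, and their counts are not independent evidence of a direction.

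In Sox9 cells, 3 of 13 further bone and cartilage genes rose beside Col11a1, namely Acan (aggrecan) by 8.48, Sox6 by 4.87 and Col2a1 by 4.76, and none fell. Of 36 further matrix genes, Col5a1 and Prelp rose. From the other lists, Sema3a (-1.22) and Hhip (-2.90), which was set aside by name, were lower in Sox9 cells. Over all genes, 0.454% were called higher and 0.0928% lower in Sox9 cells. In Pbx3 and Tead4 cells none of 12 further bone and cartilage genes passed. Tead4 cells had Fbn1 higher (1.45) and Hhip (-5.53) and Chrdl1 (-3.62) lower, next to 0.0817% and 0.0612% of all genes.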

How the data were processed

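Ribosome-depleted, strand-specific, single-end RNA-seq of 6 groups was processed by the authors with Bowtie2 on mm9 and DESeq 1.10.1, as the submitters' processing notes state. The deposited tables (8 in all, exonic and intronic for 4 comparisons) hold group means as a signal (read counts divided by size factors), their ratio (fold change), its log2 and p-values of the authors' test, per the file headers. The means resolved into whole reads of 2 libraries per group, with 1 solution for 100.0% of genes (relative tolerance 1e-12, absolute 1e-11).

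From these reads, limma 3.58.1 (R 4.3.3) was run on log2(normalised count + 1) with an intensity trend, for genes with a mean of at least 50 over both groups, and p was adjusted by Benjamini-Hochberg with a threshold of 0.05. Folds on this scale understate changes of low genes. The scripts were tested on simulated data. Shares of reads carry exact 95% intervals and a floor of 3 reads, for counting error only. Levels across tables are reads per 1000000 exonic reads. Sequences, positions and spans come from RefSeq GRCm38.p6, not the authors' build, and no coordinates were converted.

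The members and gene lists were chosen with earlier results of these data known. Named are the 25 most read members, the 6 with most KO intronic reads, every called member, the 3 highest and 3 lowest per factor, the genes next to each threshold, and members that neighbour each other. Classes were assigned by hand. Genes below the minimum mean are described by their reads.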

Additional observations from a re-analysis of the deposited data

Results flagged for a closer look

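These members responded differently to 2 of the 3 factors by a limma test of the difference, in 1 fit over 8 libraries with adjustment over 9778 genes. All values are log2 differences in exonic reads, with 2 libraries in each group.

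Sox9 cells lay above Pbx3 cells for Col11a1 by 5.12 (adjusted p 0.0110), Zfp521 by 2.51 (0.0174), Lama4 by 2.50 (0.0426), Unc5c by 2.45 (0.0126), Plce1 by 1.61 (0.0356) and Sgcd by 1.45 (0.0455). Tead4 cells lay above Pbx3 cells for Zfp521 by 1.85 (adjusted p 0.0480) and Unc5c by 1.69 (0.0480). Tead4 against Pbx3 cells gave -5.91 for Itm2a (adjusted p 0.00194), -3.99 for Lama4 (0.0110) and -1.68 for Mmp16 (0.0418).

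Sox9 cells lay above Tead4 cells for Itm2a by 8.20 (adjusted p 3.32e-04), Panx3 by 6.65 (0.00569), Lama4 by 6.48 (7.90e-04), Col11a1 by 4.11 (0.0102) and Epha3 by 1.21 (0.0102). Sox9 against Tead4 cells gave -1.80 for Il1rl1 (adjusted p 0.0181). Itm2a and Panx3 rest on 2 and 3 reads in Tead4 cells, so their differences depend on the added count of 1.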

How the results depend on the processing

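With the threshold rule applied in every library, 38 genes would qualify; 37 would with a WT mean of at least 100 and 41 with a KO mean below 2, and leaving out 1 library gave 65 (without WT library 2) to 93 (without KO library 2). The median intronic difference of -4.10 became -3.23 with 5 added in place of 1, -3.78 with no minimum mean and -4.94 with a minimum of 50, and leaving out 1 library gave -4.41 to -3.92. A term for the shared difference between libraries was chosen after seeing the data. It raised the called members from 0 to 9 in Pbx3 exons and introns and from 4 to 13 in Sox9 exons. The rise was from 0 to 12 in Tead4 exons and from 3 to 13 in Tead4 introns. The share of all genes called with this term was not counted, so the rise is no result about the members. A minimum mean of 10 gave 8 in Sox9 exons, 1 in Tead4 exons and 11 in Tead4 introns, and a minimum of 200 gave 1 in Tead4 introns. The authors' deposited test calls 7, 15 and 10 there, and 1 fit over 8 libraries gave 1 in Tead4 exons. Leaving out 1 library gave 6 to 11 members in Sox9 exons, 6 to 8 in Sox9 introns, 0 to 13 in Tead4 exons, 2 to 8 in Tead4 introns and 0 to 1 in Pbx3 introns. The lone library of such a fit is assumed to vary like the others. The medians over tested members (0.25 in Pbx3, 0.81 in Sox9, 0.66 in Tead4 exons) became -0.056, 0.17 and -0.45 with a minimum mean of 10, and 2.44 in Sox9 and 1.38 in Tead4 with a minimum of 200; leaving out 1 library gave 0.081 to 0.54, 0.56 to 1.18 and -0.063 to 0.61. Fewer genes are tested at a higher minimum. That minimum applies to both groups together, so members that fall can drop out, which shapes these medians. The cause of the other moves was not tested. Depth limits the KO shares, which rest on at most 10 reads. The labels and tables number no libraries, so the design gives no pairs; the sides of the added term were read from the data, as the direction in which the libraries of each group differed over genes that are no members.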
